A study of Homo sapiens with 6 samples.

Results

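DNA replication licensing and fork genes, the genes whose products mark origins, load and start the replicative helicase and build new DNA behind it, were compared between Adriamycin (ADR)-resistant and parent MDA-MB-231 cells. The 54 genes were chosen by name from textbook roles, and all 54 were found among the 58735 genes of the count table. They were chosen with earlier results of these data known, including that S phase genes lay lower, so their direction is not independent support. MDA-MB-231 is a triple-negative breast cancer (TNBC) cell line of mesenchymal character. ADR (doxorubicin) is an anthracycline that poisons topoisomerase II. The parent group was the wild-type line and the other group, ADRr, was its ADR-resistant derivative, each with 3 RNA-seq libraries and grown in DMEM with serum and antibiotics. ADRr cells had been selected in rising ADR concentrations and isolated by limiting dilution as single clones, so the difference between a clone and the parent population and the difference that goes with resistance cannot be told apart. The sources used here do not say whether ADR was present at harvest. The series text mentions 3 time points that no sample label carries, and nothing says that libraries of a group came from separate cultures, so p-values measure the spread between these libraries, which may be technical.

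Replication begins in G1 phase, when the origin recognition complex (ORC), CDC6 and CDT1 load the MCM2-7 helicase onto DNA, a step called licensing that geminin (GMNN) blocks later in the cycle. In S phase the kinase CDC7 with its activator DBF4 fires the origin, CDC45 and the GINS complex join MCM2-7 to form the active CMG helicase, and polymerases alpha, delta and epsilon copy the strands with the help of the sliding clamp PCNA, its loaders and the single-strand binding protein RPA. Many of these genes are known to be transcribed around the G1 to S transition through E2F sites, so their RNA is abundant in populations with many cycling cells. In bulk RNA, fewer cells in S phase and less RNA per cell cannot be told apart.

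In ADRr cells most of this machinery was lower in RNA. Of the 54 genes, 45 were called lower (83.3%, where 29.6% of all 15242 tested genes were), 2 were called higher (ORC4 and POLD4, where the share over all genes was 29.2%) and 7 were not called. Calls needed a fold change of 1.2 or more in either direction with an adjusted p no higher than 0.05 (edgeR's quasi-likelihood test, Benjamini-Hochberg over all tested genes). The median log2 fold change, ADRr against parent, was -1.05 over the 54 genes and -0.0061 over all tested genes. It ranged from -2.46 for ORC1 to 0.59 for POLD4. Every ADRr library lay below every parent library for 47 of the 54 (34.7% of all tested genes) and above it for 4 (34.5%), and the groups overlapped for 3. A fall of at least 1 on the log2 scale was called for 28 of them (9.05% of all tested genes). The plot of levels by library shows this separation gene by gene.

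**Figure D1:**
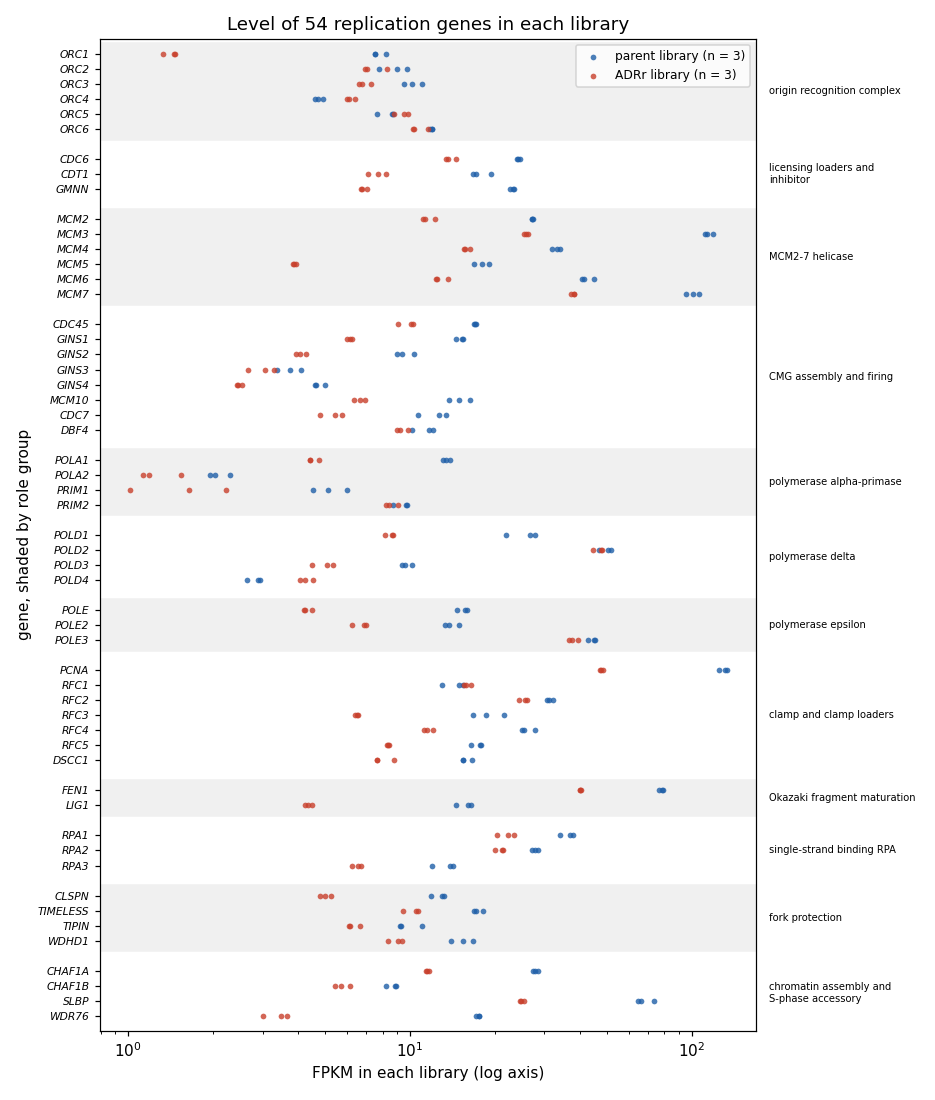
FPKM (fragments per length of the gene, scaled to the library, log axis) of each of the 54 genes in the 3 parent libraries (blue) and the 3 ADRr libraries (red), ordered by role. The red points lie left of the blue ones for 47 genes, right of them for 4, and the colours mix for ORC2, PRIM2 and POLD2.

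The libraries themselves were alike in size. Total counts ran from 15983985 to 18272314, and the TMM scaling factors from 0.987 to 1.01. The 54 genes held 0.519 to 0.525% of the counts in parent libraries and 0.256 to 0.259% in ADRr libraries. The lowest count of any of the 54 was 46, for PRIM1 in ADRr replicate 3, and 52 of the 54 (all but PRIM1 and ORC1) had over 100 counts in every library. The mesenchymal markers VIM, CD44, AXL, LGALS1 and S100A4 were abundant in both groups, with a summed FPKM of 1240 to 1314 in parent and 1076 to 1160 in ADRr libraries. They were not level between the groups: VIM (log2 fold change -0.56), AXL (-0.62) and S100A4 (-0.69) were called lower in ADRr cells. CD44 (0.80) was called higher and LGALS1 (0.16) was not called. ESR1 and PGR, the receptors a triple-negative line lacks, were at or next to 0. Of the other markers that should be low, FOXA1 was next to 0 and GATA3 was not, with 7.95 to 9.18 FPKM in parent and 7.10 to 7.84 in ADRr libraries (not called). EPCAM had an FPKM of 3.73 to 5.86 in parent and 10.4 to 10.7 in ADRr libraries (log2 fold change 1.10, called higher). The part of GATA3 or EPCAM in the results was not tested. Of 10 leukocyte markers 9 were too low to be tested, TYROBP was at 0 in all 6 libraries, PTPRC was at 0.0121 FPKM or less, and the list's summed FPKM was 2.74 to 4.13 in parent and 2.69 to 3.32 in ADRr libraries, nearly all of it CD14.

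Sequences before the start sites of these genes were read from RefSeq windows (250 bases before to 50 after a transcript start, GRCh38.p14), because the genes are known for E2F sites there. Windows were matched by symbol for 46 of the 54 genes (11 of them had several, and a match in any counted) and not for DSCC1, GINS4, MCM4, MCM5, POLD3, RPA2, RPA3 and WDR76. The letters TTTCCCGC, TTTCGCGC, TTTGCCGC and TTTGGCGC, one common spelling of the E2F motif, were searched on both strands. They stood in a window of 21 of the 46 genes (45.7%) and of 3.99% of all 27305 genes with a window. Shown here are the 120 bases before the start of 5 genes that fell and carry the letters, in 5 of the machine's roles: helicase (MCM6), licensing inhibitor (GMNN, the second of its windows), origin-firing kinase (CDC7, the second of its windows), clamp (PCNA) and leading-strand polymerase (POLE). Capitals mark the E2F letters, which read GCGGGAAA, GCGCGAAA or GCGCCAAA when they lie on the opposite strand.
MCM6 (chr2:135876444-135876563, minus strand): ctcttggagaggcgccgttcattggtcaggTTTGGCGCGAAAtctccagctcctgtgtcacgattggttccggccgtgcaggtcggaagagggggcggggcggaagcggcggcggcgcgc
GMNN (chr6:24775293-24775412, plus strand): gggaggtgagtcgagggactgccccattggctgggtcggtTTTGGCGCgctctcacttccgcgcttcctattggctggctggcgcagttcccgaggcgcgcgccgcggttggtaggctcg
CDC7 (chr1:91500992-91501111, plus strand): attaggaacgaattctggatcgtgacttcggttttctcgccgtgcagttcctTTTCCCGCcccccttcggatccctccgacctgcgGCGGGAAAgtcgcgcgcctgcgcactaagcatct
PCNA (chr20:5126623-5126742, minus strand): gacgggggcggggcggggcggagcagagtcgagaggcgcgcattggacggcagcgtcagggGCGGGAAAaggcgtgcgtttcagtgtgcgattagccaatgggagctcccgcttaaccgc
POLE (chr12:132687343-132687462, minus strand): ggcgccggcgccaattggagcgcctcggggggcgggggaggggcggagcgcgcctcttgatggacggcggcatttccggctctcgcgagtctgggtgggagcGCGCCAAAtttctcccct
In MCM6 the capitals hold 2 matches that overlap head to head, TTTGGCGC and the opposite-strand TTTCGCGC, and in CDC7 there are 2 separate matches that face each other. Windows of 2 genes that were not called, the large clamp loader subunit RFC1 and the smallest ORC subunit ORC6, are shown beside them because they hold none of the 4 spellings.
RFC1 (chr4:39366363-39366482, minus strand): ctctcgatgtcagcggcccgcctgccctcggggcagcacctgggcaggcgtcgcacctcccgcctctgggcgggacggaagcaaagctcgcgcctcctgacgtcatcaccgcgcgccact
ORC6 (chr16:46689539-46689658, plus strand): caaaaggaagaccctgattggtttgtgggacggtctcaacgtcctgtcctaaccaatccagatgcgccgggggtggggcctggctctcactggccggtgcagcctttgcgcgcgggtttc
All 21 genes with the letters were among the 37 genes with a window that were called lower (56.8% of these), and 0 of the 9 genes with a window that were not called lower had them. The median log2 fold change was -1.31 for the 21 genes with the letters and -0.73 for the 25 without. Among the 37 genes called lower, it was -1.31 with and -1.01 without them. Over all 10469 tested genes with a window, 6.53% had the letters, and the median log2 fold change was -0.12 with and -0.0079 without them. The letters stood in 265 of the 3331 tested genes with a window that were called lower (7.96%) and in 419 of the 7138 that were not (5.87%). Within all tested genes called lower, the medians with and without the letters were both -0.67. ORC1, the gene that fell most, had none of the 4 spellings in its window. The sequence CCAAT stood in a window of 26 of the 46 genes (56.5%, against 39.7% of all genes with a window and 42.6% of the tested ones). TTTGAA, the cell cycle homology region (CHR) of genes of late cell cycle, stood in 2 of the 46 (4.35%, against 18.2% and 13.4%). These matches describe letters only, and binding was not measured.

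Of the groups of genes by role, the origin recognition complex had the smallest share called lower. Of its 6 subunits 2 were called lower (ORC1 and ORC3), 1 higher (ORC4) and 3 were not called. The share called lower was 33.3%, near the 29.6% of all tested genes, and the share called higher 16.7%, against 29.2%. The median log2 fold change of the complex was -0.21. ORC1, the subunit that is known to come and go with the cell cycle, had an FPKM of 7.52, 7.54 and 8.23 in parent and 1.45, 1.33 and 1.46 in ADRr libraries (ENSG00000085840, GRCh38 chromosome 1, 52372829 to 52404459, minus strand). All ADRr libraries were far below all parent libraries, a log2 fold change of -2.46 (standard error, SE, of 0.12; edgeR adjusted p = 2.0e-14), or 5.49-fold lower. Its SD was 0.408 FPKM in parent and 0.0758 in ADRr libraries (n = 3 each). ORC3, a core subunit, had 9.54 to 11.0 FPKM in parent and 6.59 to 7.26 in ADRr libraries, a fall of 0.58 on the log2 scale. ORC4, also a core subunit with an ATPase fold, went the other way: it had 4.60, 4.90 and 4.72 FPKM in parent and 6.39, 6.09 and 5.99 in ADRr libraries. The groups did not overlap and the log2 fold change was 0.37 (SE 0.069, edgeR adjusted p = 5.5e-05). ORC2, which anchors the core with ORC3, had 8.98, 9.73 and 7.79 FPKM in parent and 6.94, 7.05 and 8.29 in ADRr libraries. ADRr replicate 3 lay above parent replicate 3, and the change of -0.25 (edgeR adjusted p = 0.013) stayed below the fold change threshold. It was called without parent replicate 3 (-0.34) or without ADRr replicate 3 (-0.34). ORC5 had 8.67, 8.63 and 7.67 FPKM in parent and 9.85, 8.74 and 9.53 in ADRr libraries. These groups were apart by little, and the log2 fold change of 0.17 was not called (95% interval -0.0011 to 0.34, edgeR adjusted p = 0.075). ORC6, the subunit that helps to recruit the helicase loader, had 12.0, 11.8 and 12.0 FPKM in parent and 11.6, 10.3 and 10.3 in ADRr libraries, again without overlap and not called (log2 fold change -0.16, 95% interval -0.31 to -0.0105, edgeR adjusted p = 0.055). Per length, ORC1 lay above ORC4 in parent libraries and was the lowest of the 6 subunits in ADRr libraries.

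All 3 licensing genes fell. CDC6, the ATPase that brings the helicase to ORC, had 24.7, 24.0 and 24.2 FPKM in parent and 14.6, 13.7 and 13.5 in ADRr libraries (chromosome 17, 40287633 to 40304657). The groups were well apart, with a log2 fold change of -0.81 (SE 0.057, edgeR adjusted p = 2.0e-11). CDT1, its partner in loading, had 17.1, 16.7 and 19.4 FPKM in parent and 7.12, 8.25 and 7.73 in ADRr libraries. It fell by 1.21 on the log2 scale (SE 0.082), more than CDC6. GMNN, the protein that binds CDT1 and prevents a second round of licensing, had 23.3, 23.2 and 22.7 FPKM in parent and 6.75, 6.72 and 7.05 in ADRr libraries (ENSG00000112312, chromosome 6, 24774931 to 24786099, plus strand). Its 3 values in each group were close together, and the log2 fold change was -1.76 (SE 0.077, edgeR adjusted p = 5.2e-15). Beside the loader it binds, the inhibitor had the larger fall, and the ratio of CDT1 to GMNN was 0.735, 0.720 and 0.854 in parent and 1.06, 1.23 and 1.10 in ADRr libraries. Every parent library had less CDT1 than GMNN per length and every ADRr library had more.

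Each of the 6 subunits of the MCM2-7 helicase fell, with log2 fold changes from -2.21 to -1.06. The subunits form a ring with a copy of each, but their RNA levels per length were unequal in both groups and did not fall in proportion. MCM3 had the highest FPKM of the ring in parent libraries, at 111, 119 and 113, and 25.9, 25.4 and 26.3 in ADRr libraries (ENSG00000112118, chromosome 6, 52264009 to 52284881, minus strand). No library came near the other group, and the log2 fold change was -2.15 (SE 0.052, edgeR adjusted p = 1.6e-19), or 4.44-fold lower. MCM7 had 101, 95.2 and 107 FPKM in parent and 38.1, 38.1 and 37.4 in ADRr libraries. It fell by 1.42, less than MCM3. Per length, each parent library held more MCM3 than MCM7 and each ADRr library more MCM7 than MCM3. In counts, MCM7 lay above MCM3 in parent replicates 1 (7519 against 6883) and 3 (8415 against 7445) and below it in replicate 2 (6758 against 7042). The order of the pair in parent libraries thus rests on the gene lengths used. MCM5 had the lowest FPKM of the ring in both groups, with 18.0, 16.9 and 19.0 in parent and 3.86, 3.86 and 3.94 in ADRr libraries (ENSG00000100297, chromosome 22, 35400063 to 35425430, plus strand). Its counts in parent libraries (2237, 2009 and 2513) were near those of MCM2 (2266, 2157 and 2403), which has a shorter gene length. The MCM5 log2 fold change of -2.21 (SE 0.066, edgeR adjusted p = 6.2e-18) was the largest fall of the ring. MCM6 had 41.4, 44.9 and 40.6 FPKM in parent and 12.5, 12.4 and 13.6 in ADRr libraries, a log2 fold change of -1.72 (SE 0.062). The MCM6 window holds 4 E2F matches, in 2 overlapping pairs, and the bases printed above show the pair nearer to the start. MCM2, the subunit that also binds histones, had 27.3, 27.2 and 27.2 FPKM in parent and 11.1, 11.3 and 12.2 in ADRr libraries, a change of -1.24. It shares 23.6% of its exon bases with genes on the opposite strand. MCM4 had 34.0, 33.3 and 31.9 FPKM in parent and 15.6, 15.7 and 16.4 in ADRr libraries, the smallest fall of the ring (-1.06, SE 0.053). All 6 subunits were without overlap, and their summed FPKM was 333 to 339 in parent and 107 to 110 in ADRr libraries. ORC2 to ORC5, the core that loads the ring, had log2 fold changes between -0.58 and 0.37, and the ratio of MCM2-7 to ORC2-5 (sums of FPKM) was 10.3, 9.83 and 11.4 in parent and 3.58, 3.75 and 3.54 in ADRr libraries.

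**Figure D2:**
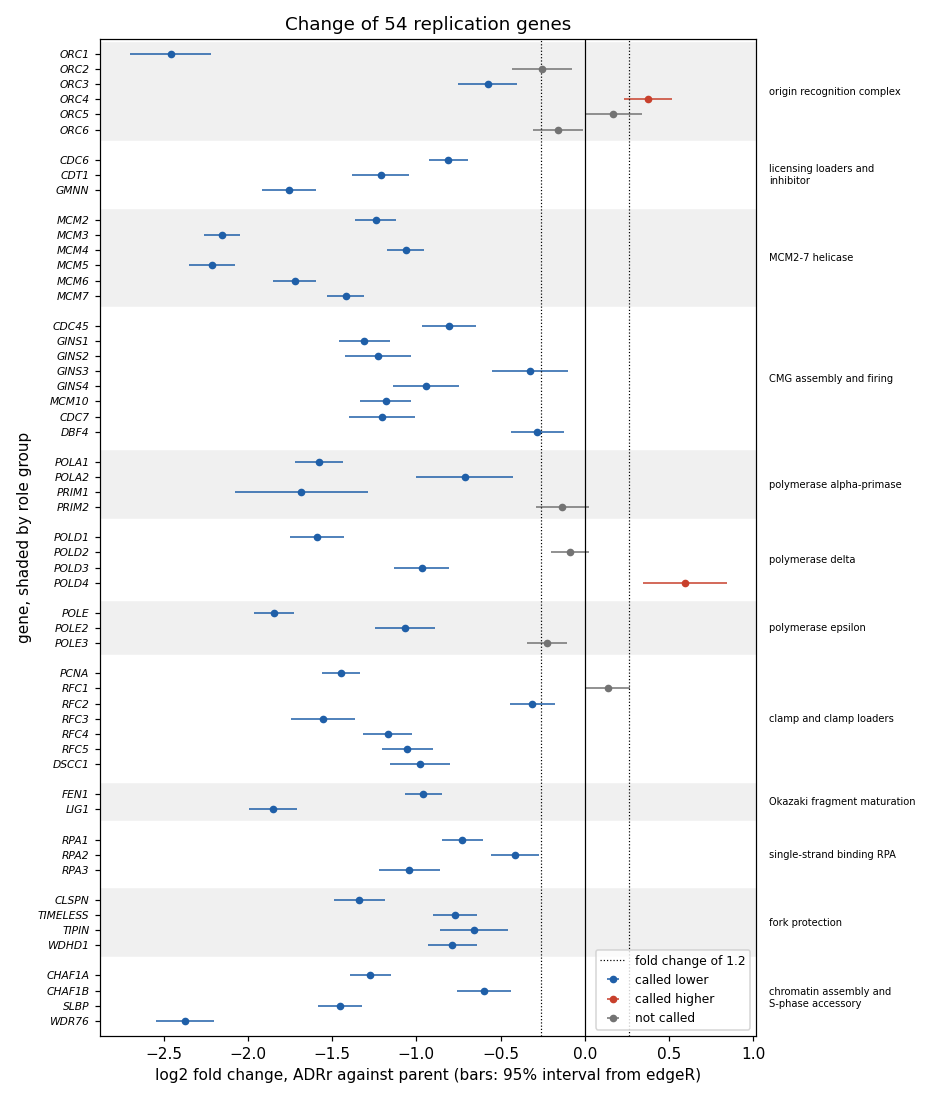
Log2 fold change (ADRr against parent, edgeR) of each of the 54 genes with its 95% interval, by role, coloured by the call; dotted lines mark a fold change of 1.2. The 6 MCM2-7 subunits lie between -2.21 and -1.06, while ORC2, ORC5, ORC6, PRIM2, POLD2, POLE3 and RFC1 were not called and ORC4 and POLD4 lie right of the lines.

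The 8 genes of helicase activation and origin firing were all called lower (median -1.06). GINS1 (-1.31), GINS2 (-1.23) and GINS4 (-0.94) fell more than GINS3 (-0.32, edgeR adjusted p = 0.012), though the 4 encode a complex with a copy of each. GINS3 had 3.76, 4.12 and 3.38 FPKM in parent and 3.29, 3.06 and 2.66 in ADRr libraries, so the groups were separated by less than the spread within either, and the call was lost without parent replicate 2 (-0.26, edgeR adjusted p = 0.044) or without ADRr replicate 3 (-0.24, edgeR adjusted p = 0.085). GINS4 and GINS3 share 23.6% and 10.9% of their exon bases with genes annotated on the opposite strand. CDC45, the remaining part of the CMG helicase, fell by 0.81, and MCM10, which helps to switch it on, by 1.18. CDC7, the kinase that phosphorylates the MCM ring, had 12.6, 13.4 and 10.7 FPKM in parent and 5.40, 4.81 and 5.75 in ADRr libraries, a log2 fold change of -1.20 (SE 0.095). DBF4, the subunit that activates CDC7, had 12.1, 11.7 and 10.2 FPKM in parent and 9.20, 8.97 and 9.82 in ADRr libraries. These groups lay next to each other, and the fall of 0.28 on the log2 scale (edgeR adjusted p = 0.0024) was just past the fold change threshold. The DBF4 call was lost without parent replicate 1 (-0.24), without ADRr replicate 1 (-0.26) and without ADRr replicate 2 (-0.25), and also with library size alone as the scaling (-0.26). The ratio of DBF4 to CDC7 was 0.959, 0.869 and 0.955 in parent and 1.70, 1.86 and 1.71 in ADRr libraries. Per length, CDC7 lay above DBF4 in each parent library and below it in each ADRr library. In counts, DBF4 was the higher in parent libraries too (940, 867 and 840 against 761, 774 and 683). The side of 1 thus rests on the gene lengths used, and the shift of the ratio between groups does not.

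Of polymerase alpha and primase, which lay down the primers, 3 of 4 subunits were called lower. POLA1, the catalytic subunit, fell by 1.58 on the log2 scale, with 13.1 to 13.9 FPKM in parent and 4.40 to 4.77 in ADRr libraries. POLA2, its regulatory partner, fell by 0.71 from a low level (1.95 to 2.29 FPKM in parent and 1.13 to 1.54 in ADRr libraries). The POLA2 value was -0.44 with a pseudocount of 1 on FPKM. PRIM1, the catalytic primase subunit, had 5.96, 5.12 and 4.53 FPKM in parent and 2.22, 1.65 and 1.01 in ADRr libraries. Both groups varied widely but did not overlap, and the log2 fold change was -1.68 with the largest standard error of the 54 genes (0.19). PRIM1 shares 21.6% of its exon bases with other annotated genes and POLA2 35.1%, and how reads in shared bases were counted is not given in the sources used here. PRIM2, the large primase subunit that works as a pair with PRIM1, had 9.65, 9.73 and 8.71 FPKM in parent and 9.04, 8.22 and 8.41 in ADRr libraries. Here the groups overlapped and PRIM2 was not called (log2 fold change -0.13, 95% interval -0.29 to 0.023, edgeR adjusted p = 0.12).

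Polymerase delta, the lagging-strand enzyme, was split among its 4 subunits. POLD1, which holds the active site and the proofreading exonuclease, had 26.6, 21.9 and 27.9 FPKM in parent and 8.72, 8.65 and 8.17 in ADRr libraries (chromosome 19, 50384204 to 50418016). It fell by 1.59 (SE 0.077, edgeR adjusted p = 3.4e-14), without overlap. POLD3, an accessory subunit, fell by 0.97. POLD2, the subunit that holds the complex together, had 50.5, 47.1 and 51.6 FPKM in parent and 44.7, 47.7 and 48.2 in ADRr libraries. Its groups overlapped and the log2 fold change was -0.09 (95% interval -0.20 to 0.022, edgeR adjusted p = 0.15), and in ADRr libraries its levels per length overlapped with those of PCNA, which lay far above it in parent libraries. POLD4, the small subunit that is known to be degraded after DNA damage, had 2.94, 2.90 and 2.64 FPKM in parent and 4.23, 4.53 and 4.09 in ADRr libraries (ENSG00000175482, chromosome 11, 67350777 to 67356972, minus strand). All ADRr libraries were higher, with a log2 fold change of 0.59 (SE 0.12, edgeR adjusted p = 1.4e-04), the largest increase of the 54 genes. POLD4 shares 21.3% of its exon bases with another gene on its own strand, and the part of that overlap was not tested.

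Polymerase epsilon, the leading-strand enzyme, showed the same kind of split. POLE, its catalytic subunit, had 15.7, 14.7 and 16.0 FPKM in parent and 4.22, 4.25 and 4.48 in ADRr libraries (ENSG00000177084, chromosome 12, 132623753 to 132687365, minus strand). The log2 fold change was -1.85 (SE 0.056, edgeR adjusted p = 8.3e-18), or 3.59-fold lower. POLE2, the subunit next to it, fell by 1.07. POLE3, a histone-fold subunit that also serves in chromatin remodelling complexes, had 44.8, 45.2 and 42.8 FPKM in parent and 39.6, 36.7 and 37.7 in ADRr libraries. All ADRr libraries were lower, yet the change of -0.22 (edgeR adjusted p = 0.0014) did not reach the fold change threshold. POLE4, the partner of POLE3 and one of the further replication genes described last, rose by 0.56, where its 50 nearest tested genes had a median of 0.41. The ratio of POLE to POLD1 was 0.591, 0.669 and 0.573 in parent and 0.484, 0.491 and 0.548 in ADRr libraries, a small shift beside the other ratios.

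PCNA, the ring that tethers polymerases to DNA, had the highest FPKM of the 54 genes in parent libraries, at 133, 125 and 131, and 47.5, 48.4 and 47.4 in ADRr libraries (ENSG00000132646, chromosome 20, 5114953 to 5126626, minus strand). No library overlapped with the other group, and it fell by 1.45 on the log2 scale (SE 0.055, edgeR adjusted p = 4.1e-16). Its 3 annotated pseudogenes had 0 counts in both groups. Of the subunits of the clamp loader RFC, the small subunits RFC3 (-1.55), RFC4 (-1.17), RFC5 (-1.05) and RFC2 (-0.31) were called lower. RFC1, the large subunit that makes the complex specific for PCNA loading, had 15.0, 15.5 and 13.0 FPKM in parent and 15.9, 15.5 and 16.4 in ADRr libraries. The ADRr values lay just above the parent values, and the log2 fold change of 0.14 was not called (95% interval 0.0035 to 0.27, edgeR adjusted p = 0.066). DSCC1, part of an alternative loader linked to sister chromatid cohesion, fell by 0.98.

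Of the enzymes that finish lagging-strand fragments, FEN1, the flap nuclease, had 79.2, 76.6 and 78.7 FPKM in parent and 40.6, 40.1 and 40.3 in ADRr libraries, a log2 fold change of -0.96. LIG1, the ligase that seals the nick, had 16.0, 14.6 and 16.5 FPKM in parent and 4.49, 4.23 and 4.36 in ADRr libraries (ENSG00000105486, chromosome 19, 48115445 to 48170603, minus strand). LIG1 fell further, by 1.85 (SE 0.069, edgeR adjusted p = 2.8e-16). The 3 RPA subunits, which coat single-stranded DNA as a trimer, fell by unequal amounts: RPA3 by 1.04, RPA1 by 0.73 and RPA2 by 0.41. Of the fork protection genes, CLSPN, the adaptor that carries the checkpoint signal from ATR to CHEK1, fell most (-1.34), followed by WDHD1 (-0.79), which links polymerase alpha to the helicase, and the partners TIMELESS (-0.77) and TIPIN (-0.66), which steady the fork. TIPIN shares 21.0% of its exon bases with an annotated pseudogene of a ribosomal protein. For all 3 RPA and all 4 fork protection genes the ADRr libraries lay below the parent libraries.

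The genes that package new DNA fell as well. CHAF1A and CHAF1B encode the large and middle subunits of the histone chaperone CAF-1, which deposits histones behind the fork through PCNA. CHAF1A fell by 1.27, with 27.2 to 28.4 FPKM in parent and 11.4 to 11.6 in ADRr libraries, and CHAF1B by 0.60, with 8.22 to 8.90 FPKM in parent and 5.44 to 6.10 in ADRr libraries. Their ratio was 3.37, 3.07 and 3.19 in parent and 2.02, 1.87 and 2.14 in ADRr libraries. SLBP, the protein that binds the stem-loop of replication-dependent histone messages, had 64.7, 73.6 and 66.0 FPKM in parent and 25.5, 24.9 and 24.5 in ADRr libraries, a change of -1.45. WDR76, a WD-repeat protein found with replication and repair factors, had 17.1, 17.6 and 17.6 FPKM in parent and 3.01, 3.67 and 3.48 in ADRr libraries (ENSG00000092470, chromosome 15, 43826963 to 43868419, plus strand). After ORC1 it had the largest fall of the 54 genes, -2.37 (SE 0.083, edgeR adjusted p = 9.2e-17).

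Balance within a library was compared for 6 pairs, since a ratio of 2 genes does not depend on how libraries are scaled to each other. In log2 units, ADRr minus parent, CDT1 to GMNN differed by 0.55, DBF4 to CDC7 by 0.92, CDC6 to CDT1 by 0.40, MCM2-7 to ORC2-5 by -1.53, CHAF1A to CHAF1B by -0.68 and POLE to POLD1 by -0.27. None of the 6 ratios overlapped between the groups. With 3 libraries against 3 the exact permutation test (two-sided) gave p = 0.1 for each, also after adjustment over the 6 ratios, which is the smallest p this design allows and above the threshold. Of the 6, the helicase ring against the origin-binding core shifted most.

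The position of the genes was examined because a gain or loss of a chromosome segment in a clone would move neighbouring genes together, and DNA copy number was not measured. The 54 genes lie on 21 chromosomes. For each, the median log2 fold change of the 50 nearest tested genes was taken as a local reference. It exceeded 0.3 in size at 8 of the 54 genes. Neighbours were lower for CDC6 (-0.62), SLBP (-0.56), TIPIN (-0.54), WDR76 (-0.43), MCM3 (-0.36) and POLE (-0.32), and higher for MCM10 (0.42) and CHAF1B (0.73). After the local reference was subtracted, 50 of the 54 genes lay below 0 and 4 above (ORC4, ORC5, POLD4 and RFC1), with a median of -1.08. What remained was small for TIPIN (-0.11) and CDC6 (-0.19), which had fallen little more than their neighbours, whereas CHAF1B lay at -1.33, MCM10 at -1.60, POLE at -1.53, MCM3 at -1.80 and WDR76 at -1.94. In the gene pairs whose ratios were compared, CHAF1A lay at -1.18 beside CHAF1B, and POLD1 at -1.53, level with POLE. CDT1 lay at -1.35 and GMNN at -1.48. DBF4 (-0.40) and CDC7 (-1.29) stayed apart, as did CDC6 and CDT1. The part of position in the ratios was not tested.

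**Figure D3:**
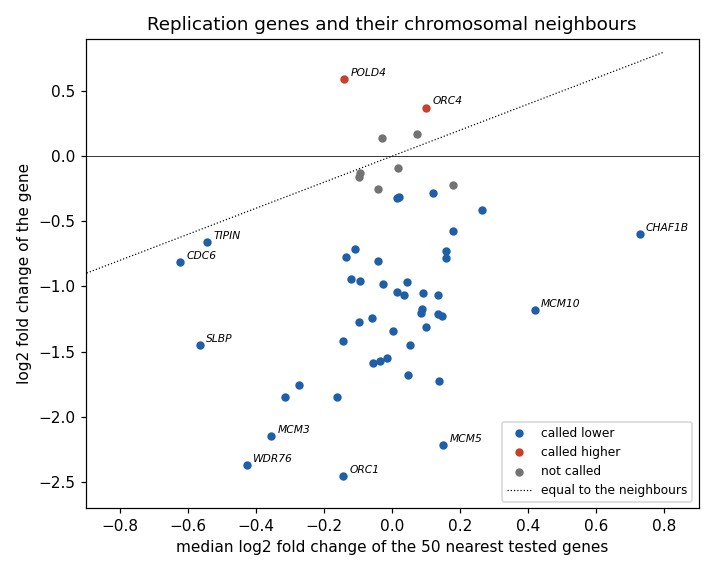
Log2 fold change (ADRr against parent) of each of the 54 genes against the median of its 50 nearest tested genes on the chromosome; on the dotted line a gene equals its neighbours. Of the 54 genes 50 lie below the line, with TIPIN and CDC6 close to it and CHAF1B and MCM10 far below neighbours that were higher.

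Further replication and fork genes, a list of 41 written for comparison and all tested, were also mostly lower, with a median log2 fold change of -0.68. Of them 27 were called lower (65.9%, where 29.6% of all tested genes were), 5 higher (12.2%, where 29.2% were) and 9 were not called. The largest falls were those of CCNE2 (-1.95), the cyclin that drives S phase entry with CDK2, RECQL4 (-1.87), a helicase needed for origin firing, and RNASEH2A (-1.78), which removes RNA primers but had at most 0.865 FPKM in any library. The 50 nearest tested genes had a median of -0.48 for CCNE2, -0.11 for RECQL4 and -0.04 for RNASEH2A. CCNE1, the sister cyclin, was not called (0.12, edgeR adjusted p = 0.27), with 7.73 to 9.26 FPKM in parent and 8.45 to 9.88 in ADRr libraries. The largest increases were POLE4 (0.56), CHTF8 (0.43), which belongs to the same alternative clamp loader as DSCC1, and HUS1 (0.40), part of the checkpoint clamp. Here the neighbours had medians of 0.41, -0.14 and 0.05. Another list held 14 genes of DNA polymerases outside the replication fork, including the accessory subunits MAD2L2 and POLG2. They serve in repair, bypass of damage or mitochondria, and 5 were called lower, 4 higher and 5 not. These shares, 35.7% lower and 28.6% higher, were near those of all tested genes, and so was the median of -0.06. In this list POLN (-1.93, at most 0.252 FPKM), POLH (-1.23), which bypasses ultraviolet lesions, and POLQ (-0.99), which joins broken ends, fell most. Their 50 nearest tested genes had medians of -0.60, -0.48 and 0.06. POLI (1.29) and POLK (0.76), which also bypass damaged bases, and POLB (0.32), of base excision repair, rose most. The 50 nearest tested genes had a median of 0.63 for POLI, 0.07 for POLK and 0.02 for POLB. POLK had 4.53, 4.54 and 4.06 FPKM in parent and 7.45, 7.33 and 7.57 in ADRr libraries, so the groups were clearly apart.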

How the data were processed

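Per the paper's methods and the submitters' processing notes, polyadenylated RNA was sequenced as paired-end reads, mapped with HISAT2 2.0.5 to GRCh38 and counted per gene with featureCounts 1.5.0-p3. The methods and the sample records name different library kits. Strandedness is not given in the sources used here. The authors deposited raw counts for each gene, as whole numbers, and FPKM values made from them. FPKM (per length) was used for levels and ratios, counts for tests.

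In R 4.3.3, genes kept by filterByExpr (15242 of 58735) were normalized with TMM and compared with edgeR 4.0.16 (quasi-likelihood, no block, Benjamini-Hochberg over all tested genes). The call rule follows the thresholds of the study. The common biological coefficient of variation was 0.0598. The median standard error of the 54 log2 fold changes was 0.073. Counting intervals are not given, since PCR reads are not independent molecules. The scripts were tested on simulated data. DESeq2 1.42.0, limma 3.58.1 and the other settings of the closing section were alternatives.

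The genes, role groups, comparison lists and the rule for named genes (every one of the 54, with values in each library for MCM2-7, the licensing genes, ORC1, PCNA, the 6 largest falls and those higher or not called; 3 largest changes each way in comparison lists) were chosen with earlier results of these data known, including that S phase genes lay lower, so their direction is not independent support. DBF4, CDC7, GINS3, PRIM1, POLD1, FEN1, SLBP, CCNE1 and POLK were given library values after these were seen. Coordinates and gene lengths of all 54 were those of GENCODE 29, from which shared exon bases were counted (24 genes share any, 8 over 10%).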

Additional observations from a re-analysis of the deposited data

How the results depend on the processing

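With 1 choice changed at a time, members called lower numbered 42 to 47 and called higher 2, except when a log2 change of 1 or more in size was required, which gave 28 members lower and 0 higher (all genes called lower, 1379, and all genes called higher, 1485). The median log2 fold change was -0.95 with limma on log2(FPKM + 1), with or without a filter on low values, which understates changes of low genes. Leaving out each library gave 44 to 46 members lower, 2 higher, 4375 to 4610 genes lower, 4297 to 4483 higher and a median of -1.06 to -1.01, and no ratio changed sign. No direction was reversed. With the call rule kept, calls changed for 3 of the 54 genes: DBF4 under 6 settings, GINS3 under 4 (both also lost with limma on log2(FPKM + 1)), and ORC2, which was gained under 2. With other call rules more genes changed: 47 were lower by the adjusted p alone, which adds ORC2 and POLE3, and 42 by glmTreat. With the replicate block 45 members were lower and 2 higher, and the call of none of the 54 changed. Deviations of same-numbered libraries correlated at 0.0074, -0.021 and -0.046, so no shared deviation was seen. With 3 libraries a group this cannot show whether same-numbered libraries were prepared together. The exact sign-flip test of the ratios over same-numbered libraries gave p = 0.25, the smallest it allows. The scaling moved the median of all genes to at most 0.020. PRIM1, POLA2 and POLD4 had the fewest counts over all 6 libraries, and ORC1 had only 84, 70 and 86 in ADRr libraries. Small differences such as those of ORC5 and RFC1 were not resolved with 3 libraries a group.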
